A study of Mus musculus with 2 samples.

Results

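Kidney fibroblast nuclei were selected from single-nucleus RNA sequencing of mouse kidney after sham surgery or 5/6 nephrectomy, and numbered 96 of 6383 barcodes in all, 58 after sham surgery and 38 after nephrectomy. A nucleus was taken as a fibroblast nucleus when it had at least 1000 unique molecular identifiers (UMIs, each standing for 1 captured RNA molecule) and at most 10% mitochondrial UMIs, and held UMIs of at least 3 of the 8 genes Pdgfra, Dcn, Lama2, Col1a2, Col3a1, Fbln1, Lum and Pdgfrb. It also had more UMIs of Pdgfra, Dcn and Lama2 together than of the mural genes Myh11, Notch3 and Rgs5, fewer than 3 UMIs of the endothelial genes Pecam1, Flt1 and Emcn, and at most 0.1% of its UMIs in the proximal tubule genes Slc34a1, Slc13a1 and Slc5a12. C7 was kept out of the rule.

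Both libraries came from frozen kidney of male T1+/+ mice that were 11 weeks old at surgery, a genotype that the labels do not explain further. In the nephrectomy group the right kidney was taken out and both poles of the left kidney were tied off a week later, while sham mice had both kidneys exposed and the flanks closed. Kidneys were collected 4 weeks after surgery. The study's title names the chondroitin sulfate enzyme Csgalnact1 and the proteoglycan versican in scarring of the remnant kidney. Each group was 1 library, and the labels do not say how many mice or which region of the kidney it held, so no difference between the groups has a replicate check and no test was possible. Ratios are nephrectomy over sham, levels are UMIs per 1000000 UMIs summed over the fibroblast nuclei (CPM), and every interval is a 95% interval for counting error only.

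Interstitial fibroblasts lie between the tubules and capillaries of the kidney, where they make collagens and proteoglycans and respond to vasoactive hormones. After injury, PDGF and TGF-beta signals can drive them towards myofibroblasts, contractile cells that deposit scar matrix. C7 encodes a terminal complement component that takes part in building the membrane attack complex.

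The sham library held 21365116 UMIs in 3084 barcodes and the nephrectomy library 28284727 UMIs in 3299 barcodes. Fibroblast nuclei gave 252715 UMIs in sham, with a median of 3999.5 per nucleus (1021 to 11646), and 249515 in nephrectomy, with a median of 5872.5 (1261 to 19270). The nephrectomy nuclei were thus deeper one by one, while the summed depth was nearly equal. The median mitochondrial share was 1.36% in sham and 0.911% in nephrectomy fibroblast nuclei. The libraries shared 2 barcodes, and 0 of these were fibroblast nuclei.

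The genes of the rule gave similar summed levels in both libraries, and these values chose the nuclei, so they are described only. Lama2, an alpha chain of basement membrane laminins, had 512 UMIs in each library. Pdgfra, a PDGF receptor that marks fibroblasts, had 162 UMIs in sham and 184 in nephrectomy, and Col1a2, a chain of type I collagen, had 108 and 110. Col3a1 had 67 and 62 UMIs, the proteoglycan gene Dcn 31 and 28, and the fibulin gene Fbln1 4 and 11. Lum gave 0 and 1 UMI, so it added almost nothing to the choice. Pdgfrb, the receptor shared with mural cells, had 105 UMIs in sham and 62 in nephrectomy, a ratio of 0.598. At the edge of the rule, the nuclei with exactly 3 of the 8 genes (17 sham, 10 nephrectomy) had C7 at 428.5 and 1034 CPM. Those just outside, with 2 of the 8 genes and all other limits met (12 and 13), had C7 at 97.6 and 429 CPM.

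Of the markers outside the rule, some went with the label, while others were less specific or near 0. Of 16 further fibroblast markers, 13 had at least 20 UMIs over both libraries. The lipid transporter gene Abca8a stood at 1302 CPM in sham and 2477 CPM in nephrectomy fibroblast nuclei, against 12.8 and 17.7 CPM in all other nuclei, and the collagen gene Col14a1 at 487 and 525 CPM, against 7.16 and 7.17 CPM. Bicc1 was much less specific, at 1381 and 1399 CPM against 683 and 560 CPM elsewhere. Dpt had 1 and 4 UMIs, Scara5 0 and 6, and Meg3 0 in both libraries. Markers of adventitial fibroblasts were nearly absent: Pi16 had 0 and 1 UMI, and the 10 genes of that list summed to 55 and 44 UMIs.

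Markers of other cell types were also present in the fibroblast nuclei. The 14 mural markers summed to 423 CPM in sham and 405 CPM in nephrectomy, and the 12 endothelial markers to 1733 and 1788 CPM, most of it from Meis2 (378 and 393 UMIs). The 15 proximal tubule markers summed to 7119 and 3831 CPM, led by Kap with 1054 and 179 UMIs, which was spread over 58 of 58 and 34 of 38 nuclei. From Lrp2, Cubn, Slc22a6, Slc27a2 and Miox, proximal tubule genes outside the rule, the share of free RNA in fibroblast nuclei was put at 21.1% in sham and 22.1% in nephrectomy. The rule kept only nuclei low in other proximal tubule genes, so it can lower this estimate. The 8 thick ascending limb markers summed to 1516 and 1731 CPM and sat largely in single nuclei: 1 sham nucleus held 230 UMIs of defining markers of other cell types, and 3 nephrectomy nuclei held 20 or more. The 12 macrophage and dendritic cell markers summed to 174 and 533 CPM, and the 8 urothelial markers were at 0.

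Fibroblast nuclei made up 2.18% of the 2655 sham nuclei that passed the depth and mitochondrial limits (1.66 to 2.81) and 1.31% of the 2908 nephrectomy nuclei (0.926 to 1.79). The difference was −0.878 percentage points (−1.60 to −0.190). It depended on the limits of the rule. The conditions on the 8 genes and on the mural genes left 100 sham and 91 nephrectomy nuclei. The endothelial limit then removed 21 and 32 of them, and the proximal tubule limit 21 and 21. With neither limit, an alternative added after the data were seen, the shares were 3.77% and 3.13%, and the difference was −0.637 points (−1.62 to 0.323). The proximal tubule genes of the rule took 0.562% of all sham UMIs and 0.705% of all nephrectomy UMIs, and the part of such carried-over UMIs in the share was not tested.

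C7 had the highest nephrectomy level of the genes named below by their ratio, but not the highest ratio. In fibroblast nuclei it had 118 UMIs in sham and 1024 in nephrectomy, or 467 CPM (386 to 559) against 4104 CPM (3856 to 4363). The ratio was 8.79 (7.26 to 10.7). The gene (ENSMUSG00000079105) lies on the minus strand of chromosome 15, from 4988762 to 5063740 on GRCm38. A C7 UMI was found in 23 of 58 sham nuclei, or 39.7% (27.1 to 53.4), and in 28 of 38 nephrectomy nuclei, or 73.7% (56.9 to 86.6). The difference was 34.0 percentage points (13.8 to 50.2). With each nucleus thinned to 1000 UMIs, which kept all 96 nuclei, the shares were 25.9% and 63.2%, and the difference was 37.3 points (17.1 to 53.8). The gap was thus as large at equal depth.

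Among single nuclei the C7 level was uneven. The highest sham nucleus had 38 C7 UMIs and the next 10, the median was 0, and 2 nuclei had 10 or more. The highest nephrectomy nuclei had 164 and 151, the median was 5.5, and 18 nuclei had 10 or more. The groups overlapped, since 10 nephrectomy nuclei had no C7 UMI and 1 sham nucleus reached 7406 per 1000000 of its own UMIs. The 5 highest nuclei held 58.5% of the sham and 62.8% of the nephrectomy C7 UMIs. Without the highest nucleus of each library the levels were 323 and 3509 CPM, a ratio of 10.9.

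**Figure D1:**
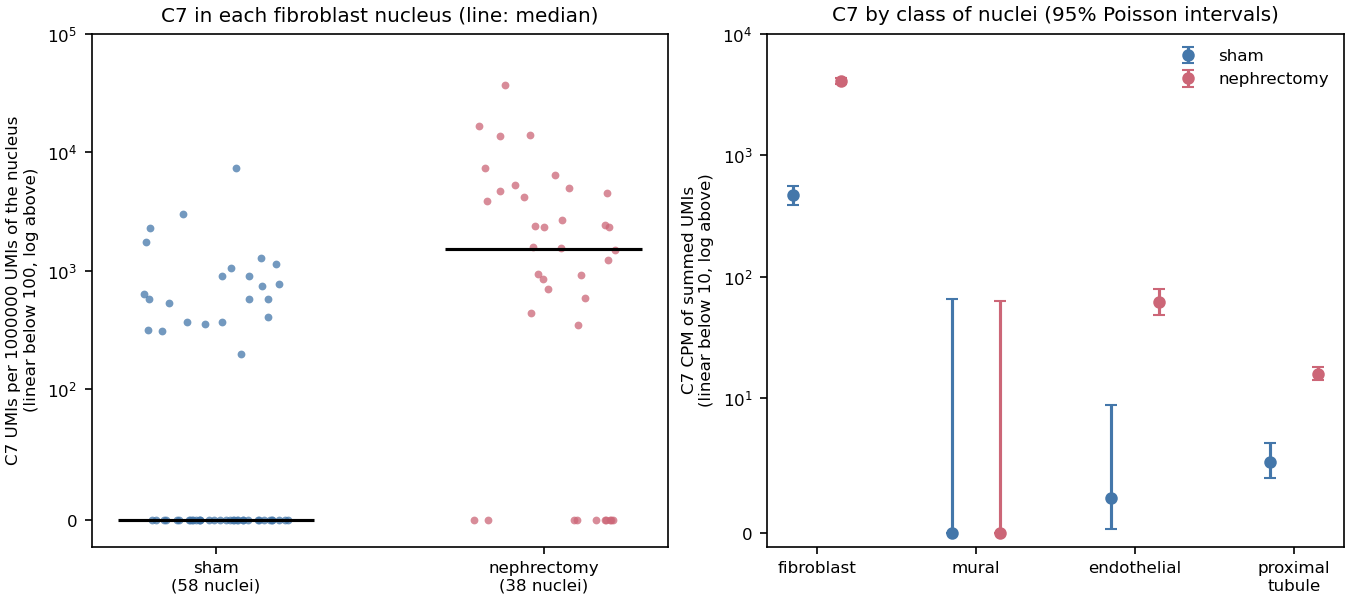
Left, C7 UMIs per 1000000 UMIs of each fibroblast nucleus (y axis, linear below 100 and log above; points, nuclei; lines, medians); right, C7 CPM of summed UMIs in 4 classes of nuclei with 95% Poisson intervals (y axis, linear below 10 and log above). The sham median was 0 and the nephrectomy median 1519, and fibroblast nuclei stood above the other 3 classes in both libraries.

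Other cell types held little C7. All other nuclei together, those left out only by the limits of the rule included, stood at 4.79 CPM in sham and 20.7 CPM in nephrectomy. C7 was thus also higher in nephrectomy outside the selected fibroblast nuclei. Part of it lay in nuclei that met the fibroblast gene conditions. Those left out only by the proximal tubule limit held 63 sham and 104 nephrectomy C7 UMIs, and those left out only by the endothelial limit 10 and 231. The link between the 2 gaps was not tested. Mural nuclei, chosen with the mural genes in place of the fibroblast genes, had 0 C7 UMIs in 13 sham and 8 nephrectomy nuclei, with exact intervals for the share that reach up to 24.7% and 36.9%. Endothelial nuclei, at a median of 2992 and 3861 UMIs, had a C7 UMI in 1.00% and 3.38% and stood at 2.64 and 62.5 CPM. Proximal tubule nuclei, which should lack the gene, were deeper, with medians of 8273.5 and 8410.5 UMIs. They had a C7 UMI in 1.45% and 3.83%, stood at 5.27 and 15.9 CPM, and after thinning had one in 0.457% and 1.02%. The share in fibroblast nuclei was thus far above this background in both libraries. C7 remained 6.48 to 17.1 times higher in nephrectomy under every alternative tried. The ratio was 17.1 with a mitochondrial limit of 2%, 15.99 without the 22 sham and 15 nephrectomy nuclei that held 3 or more UMIs of defining markers of other cell types, and 6.48 with a proximal tubule limit of 0.5%. The 4 nuclei with 20 or more such UMIs had 0 C7 UMIs, and without them the ratio was 9.48.

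Over all 4980 genes with at least 20 UMIs in fibroblast nuclei, 814 (16.3%) were at least 1.5-fold higher in nephrectomy and 916 (18.4%) at least 1.5-fold lower, and the median log2 ratio was −0.01. Most of these genes had few UMIs, and a 1.5-fold ratio is often within counting error there. Of 1523 genes that could be named by the stricter rule given with the processing, 53 were at least 2-fold higher and 43 at least 2-fold lower. The 15 highest and 15 lowest ratios were described.

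Kcnk2, a leak potassium channel that responds to stretch, had the highest ratio. It had 4 UMIs in 4 sham nuclei and 49 UMIs in 16 nephrectomy nuclei, a ratio of 12.4 (4.55 to 47.3), and no nucleus held more than 9. In all other nuclei Kcnk2 stood at 2.52 and 1.88 CPM, so its level in fibroblast nuclei did not follow the rest of the library. Sulf1, an enzyme that trims sulfate from heparan sulfate chains, had 10 UMIs in 9 sham nuclei and 55 UMIs in 17 nephrectomy nuclei, a ratio of 5.57 (2.81 to 12.3). Aldh1a1, which makes retinoic acid from retinal, had 16 UMIs in 5 nuclei and 84 in 12, a ratio of 5.32 (3.09 to 9.73), with 30 of the 84 in 1 nucleus. Fat4, an atypical cadherin of the renal stroma, had 12 and 61 UMIs, a ratio of 5.15 (2.75 to 10.5). Sulf1, Aldh1a1 and Fat4 were also higher in all other nuclei. Sulf1 stood there at 9.8 CPM in sham and 14.9 CPM in nephrectomy, Aldh1a1 at 4.1 and 13.2, and Fat4 at 6.2 and 8.6. Kcnk2, Sulf1, Aldh1a1 and Fat4 gave UMIs in a larger share of the nephrectomy nuclei than of the sham nuclei. The same held after thinning, but there each gene rested on only 0 to 5 sham and 3 to 9 nephrectomy UMIs.

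Itgb8, the integrin beta chain of a receptor that activates latent TGF-beta, had 28 UMIs in 17 sham nuclei and 101 in 28 nephrectomy nuclei, a ratio of 3.65 (2.38 to 5.77). Its ratio was 1.19 with neither limit of the rule, and it stood at 293 and 262 CPM in all other nuclei, against 111 and 405 CPM in fibroblast nuclei. Kcnab1, a beta subunit of potassium channels, had 26 and 87 UMIs, a ratio of 3.39 (2.17 to 5.47). Elmo1, which acts in Rac activation and engulfment, stood at a ratio of 3.38 (1.74 to 7.07). Plcxd3, which was also on the list of medullary fibroblast markers, had 41 and 110 UMIs, 46 of the 110 in 1 nucleus, and a ratio of 2.72 (1.88 to 3.99). Fry, Phf24, Pcgf5, Naaladl2, Apba1 and Macrod2 lay between 2.77 and 3.49. Apba1 had 40 of its 69 nephrectomy UMIs in 1 nucleus, and its ratio was 0.743 without nuclei with 3 or more UMIs of other cell types. Macrod2, which stood at 586 and 408 CPM in all other nuclei, had a ratio of 0.925 with neither limit of the rule.

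**Figure D2:**
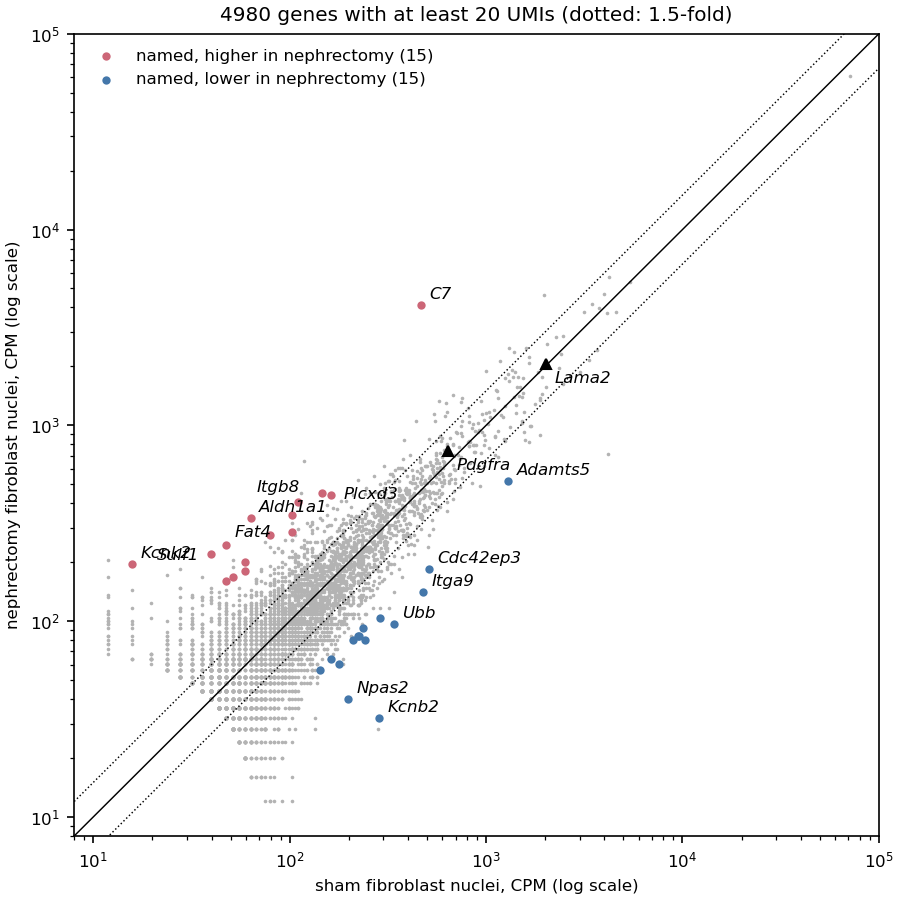
CPM in sham (x axis) and nephrectomy (y axis) fibroblast nuclei for 4980 genes, both on log scales, with counts under 3 drawn at 3, the line of equality and dotted lines at 1.5-fold. C7, at 467 and 4104 CPM, has the highest nephrectomy level of the named genes, while Lama2 and Pdgfra lie close to the line of equality.

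The lowest ratio belonged to Kcnb2, a voltage-gated potassium channel, with 72 UMIs in 18 sham nuclei and 8 UMIs in 3 nephrectomy nuclei, a ratio of 0.113 (0.0468 to 0.234). Adamts5, a protease that cleaves versican and aggrecan, was the best counted of the lower genes: 328 UMIs in sham and 129 in nephrectomy gave 1298 CPM (1161 to 1446) against 517 CPM (432 to 614). The ratio was 0.398 (0.322 to 0.490). It was found in 75.9% of sham and 73.7% of nephrectomy nuclei, and with each nucleus thinned to 1000 UMIs in 51.7% and 23.7%. Itga9, the alpha chain of an integrin for tenascin and fibronectin, had 121 and 35 UMIs, giving a ratio of 0.293 (0.195 to 0.430), and was found in 62.1% and 36.8% of nuclei (27.6% and 10.5% after thinning). Cdc42ep3, an effector of the cytoskeletal GTPase Cdc42, had 130 and 46 UMIs, a ratio of 0.358 (0.250 to 0.505), in 69.0% and 39.5% of nuclei (39.7% and 15.8% after thinning). Adamts5, Itga9, Cdc42ep3 and Kcnb2 stayed at least 1.5-fold lower under every alternative. Each was also lower in all other nuclei. Adamts5 stood there at 19.26 CPM in sham and 10.39 CPM in nephrectomy, and Itga9 at 22.79 and 16.33 CPM. Cdc42ep3 stood there at 10.94 and 9.199 CPM, and Kcnb2 at 14.03 and 8.366 CPM. The link of these gaps with those in fibroblast nuclei was not tested.

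Npas2, a clock transcription factor, had 50 and 10 UMIs and a ratio of 0.203 (0.0916 to 0.404). Its level was also lower in all other nuclei, at 41.5 CPM in sham and 28.1 CPM in nephrectomy. The same held for Ubb, Calr, Pdia3 and Cd63. Ubb, a ubiquitin gene, had a ratio of 0.283 in fibroblast nuclei and stood at 252 and 97.1 CPM in all other nuclei. Calr and Pdia3, chaperones of the endoplasmic reticulum, had ratios of 0.373 and 0.338 (1.09 for Pdia3 after thinning), and stood at 118 and 54.7 CPM and at 121 and 59.6 CPM elsewhere. Cd63, a tetraspanin of late endosomes, had a ratio of 0.361 and stood at 239 and 156 CPM elsewhere. Lower levels of these genes were thus also seen outside fibroblast nuclei. The mitochondrial share was also lower in the nephrectomy fibroblast nuclei, and its part in these ratios was not tested. St6galnac5, Sntb2, Slc24a3, Sept4, Cers5 and Rcor1 had ratios of 0.332 to 0.395, and with neither limit of the rule Sept4 had 1.03, Rcor1 0.928, Cers5 0.852, Sntb2 0.702 and Slc24a3 0.691. St6galnac5 had 29 of its 61 sham UMIs in 1 nucleus, and its ratio was 1.02 without nuclei with 3 or more UMIs of other cell types.

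**Figure D3:**
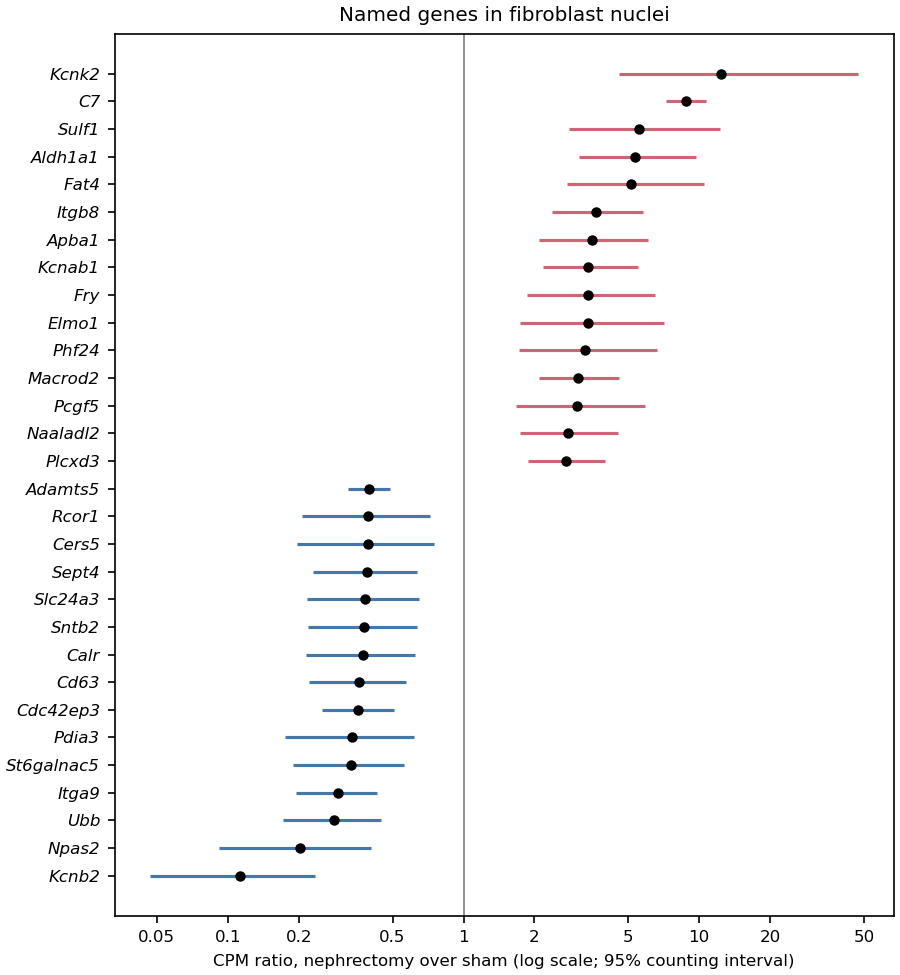
CPM ratio of nephrectomy over sham (x axis, log scale) for the 30 named genes, with 95% counting intervals in red for higher and blue for lower genes. The ratios run from 12.4 for Kcnk2 to 0.113 for Kcnb2, and the interval of C7 (7.26 to 10.7) is the narrowest among the higher genes.

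Myofibroblast genes did not stand higher as a group. Of 34 genes on the list, 17 had at least 20 UMIs, 3 of them at least 1.5-fold higher and 2 lower. Over all genes 16.3% were higher and 18.4% lower. The median log2 ratio of the list was −0.15 against −0.01 over all genes. Ccn2, a matricellular protein induced by TGF-beta, had 312 UMIs in sham and 213 in nephrectomy, a ratio of 0.691 (0.578 to 0.826). The protease gene Adam12 had 184 and 156 UMIs, a ratio of 0.859 (0.689 to 1.07). The smooth muscle actin gene Acta2 had 6 and 21 UMIs, but 16 of the 21 were in 1 nucleus. Tagln, another contractile gene, had 33 and 18 UMIs, and Sfrp1, a secreted Wnt inhibitor, 19 and 5.

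The structural matrix genes were mixed, and are counted here without the genes that chose the nuclei. Of 8 fibrillar and associated collagens with enough UMIs, 1 was higher and 2 were lower, and the median log2 ratio was 0.01. Col6a3 of the microfibrillar type VI collagen had 65 and 33 UMIs, giving a ratio of 0.514 (0.328 to 0.793), and Col6a1 22 and 13. Col14a1 had 123 and 131 UMIs, so the collagen genes did not share a direction. Of 18 basement membrane genes 2 were higher and 5 lower, with a median of −0.34, beside 16.3% higher and 18.4% lower over all genes. Col4a1, a type IV collagen chain, had 248 and 155 UMIs, giving a ratio of 0.633 (0.514 to 0.777), and the laminin chain gene Lamb3 had 20 UMIs in 17 nuclei and 3 in 3. Col4a4 had 27 and 69 UMIs, at 107 and 277 CPM, below the 541 and 668 CPM of all other nuclei. The elastic fibre gene Fbln5 had 486 and 442 UMIs, a ratio of 0.921 (0.808 to 1.05), while Emilin1 had 57 and 30 and Ltbp1 20 and 38. Among 4 small leucine-rich proteoglycans 0 were higher and 1 was lower: Ogn had 61 and 32 UMIs, giving a ratio of 0.531 (0.335 to 0.828), and Bgn 104 and 103.

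Csgalnact1, which starts chondroitin sulfate chains, did not differ beyond counting error in fibroblast nuclei. It had 43 UMIs in sham and 34 in nephrectomy, or 170 CPM (123 to 229) against 136 CPM (94.4 to 190). The ratio was 0.801 (0.495 to 1.29). The interval spans lower and higher levels, so equality was not shown either. It was found in 31.0% and 34.2% of fibroblast nuclei, and in 12.1% and 13.2% after thinning. Endothelial nuclei stood far higher, at 704 CPM (645 to 766) and 719 CPM (670 to 771), and proximal tubule nuclei at 155 and 143 CPM, about the fibroblast level. Versican (Vcan), a large chondroitin sulfate proteoglycan, had 0 UMIs in the 58 sham nuclei and 5 UMIs in 2 of the 38 nephrectomy nuclei, or 0 CPM (0 to 14.6) against 20.04 CPM (6.51 to 46.8). In all other nuclei it stood at 2.03 and 3.91 CPM, and no ratio is given for it.

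Other genes of chondroitin and dermatan sulfate synthesis went both ways, 4 higher and 2 lower of 10, with a median log2 ratio of −0.02. For this list and those that follow in this paragraph, the shares over all genes were 16.3% higher and 18.4% lower. The chain polymerase gene Chsy1 had 22 and 7 UMIs, giving a ratio of 0.322 (0.116 to 0.781), and its relative Chsy3, chosen after its values were seen, had 17 and 41, a ratio of 2.44 (1.36 to 4.59). Xylt1, which puts the first sugar on the core protein, had 5 and 16 UMIs, and the sulfotransferase gene Ust 71 and 45, a ratio of 0.642 (0.432 to 0.946). Of the 5 versican and hyaluronan genes with enough UMIs, Adamts5 was the 1 lower gene and Adamts15, with 10 and 16 UMIs, the 1 higher. Adamts9, another versican-cleaving protease, had 289 and 234 UMIs. Of 15 heparan sulfate genes 4 were higher and 1 lower, with a median of 0.20. Besides Sulf1, the glypican gene Gpc4 had 20 and 48 UMIs, giving a ratio of 2.43 (1.42 to 4.32), and Gpc6 328 and 455, a ratio of 1.40 (1.22 to 1.62). Gpc4 stood at 450 and 371 CPM in all other nuclei, above its 79.1 and 192 CPM in fibroblast nuclei. Of 15 proteases and inhibitors 2 were higher and 3 lower. Plau, the urokinase gene, had 22 and 8 UMIs and was lower elsewhere too, at 88.3 and 51.8 CPM.

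**Figure D4:**
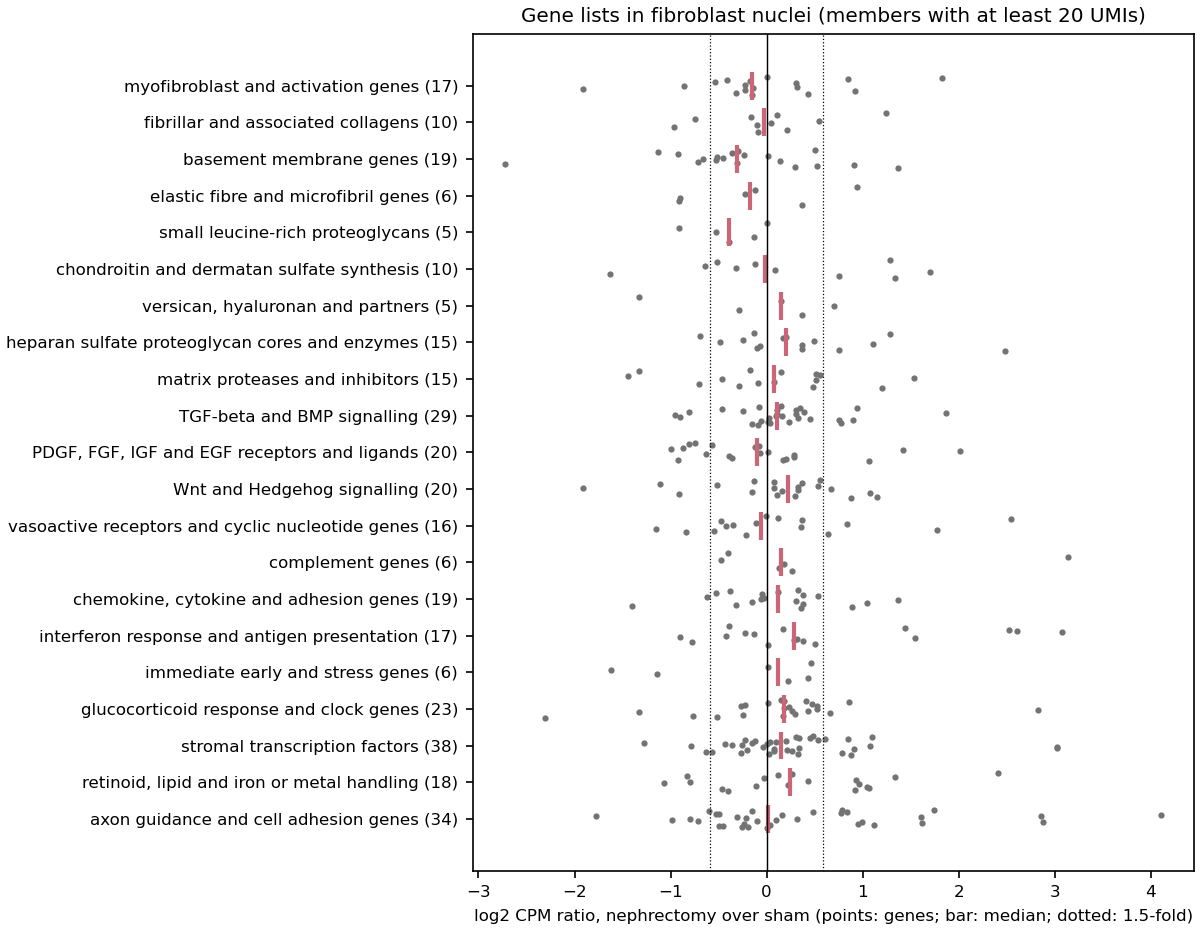
Log2 CPM ratio of nephrectomy over sham (x axis) for each member with at least 20 UMIs (points) of 21 gene lists (y axis, number of such members in brackets, genes of the rule included), with list medians as red bars and dotted lines at 1.5-fold. All medians lie within the dotted lines, from −0.40 for small leucine-rich proteoglycans to 0.28 for interferon response and antigen presentation.

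Among growth factor genes, 2 binding proteins of insulin-like growth factors were at least 1.5-fold lower. Of 18 PDGF, FGF, IGF and EGF genes outside the rule 3 were higher and 5 lower, with a median log2 ratio of −0.10. Over all genes 16.3% were higher and 18.4% lower. Igfbp3, which binds insulin-like growth factors, had 416 UMIs in sham and 206 in nephrectomy, or 1646 against 826 CPM, a ratio of 0.501 (0.422 to 0.594). Igfbp5 had 235 and 122 UMIs, giving a ratio of 0.526 (0.419 to 0.657), and Igfbp7 508 and 390, a ratio of 0.778 (0.680 to 0.889). Igfbp3 was found in 75.9% of sham and 73.7% of nephrectomy nuclei, and in 60.3% and 44.7% after thinning. Igfbp5, at 185 and 129 CPM, and Igfbp7, at 623 and 504 CPM, were lower in all other nuclei as well. The ligand gene Pdgfd had 28 and 74 UMIs, a ratio of 2.68 (1.71 to 4.30), with 30 of the 74 in 1 nucleus. Nrg1 had 4 and 16 UMIs, 13 of the 16 in 1 nucleus.

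TGF-beta and BMP genes were mostly close to equal, with 5 of 29 higher, 3 lower and a median of 0.11, beside 16.3% higher and 18.4% lower over all genes. Itgb8 and Ltbp1, both acting on latent TGF-beta, were the 2 highest. Smad3, a transcription factor of the pathway, had 53 and 27 UMIs, a ratio of 0.516 (0.312 to 0.835), while the coreceptor gene Tgfbr3 had 173 and 174 and the ligand gene Bmp6 166 and 214. In the Wnt and Hedgehog list 4 of 20 were higher and 3 lower, with a median of 0.22 and the same shares over all genes. Dkk2, a secreted Wnt modulator, had 96 UMIs in 14 nuclei and 211 in 17, a ratio of 2.23 (1.74 to 2.86), and 97 of the 211 were in 1 nucleus. Gas1, a Hedgehog coreceptor, had 24 and 11 UMIs, a ratio of 0.464 (0.205 to 0.984).

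The best counted genes of vascular tone differed little. Prkg1, the cyclic GMP-dependent kinase, had 1368 and 1343 UMIs, giving a ratio of 0.994 (0.922 to 1.07), and the phosphodiesterase gene Pde3a 516 and 651, a ratio of 1.28 (1.14 to 1.44). Gucy1b1, a subunit of the nitric oxide receptor, had 58 and 32 UMIs, a ratio of 0.559 (0.351 to 0.875). Of the 16 genes of the list 4 were higher and 2 lower, with a median of −0.06, beside 16.3% higher and 18.4% lower over all genes. Adra1a, an adrenergic receptor gene, had 4 and 23 UMIs in 3 and 7 nuclei and stood at 219 and 286 CPM in all other nuclei. Ptger3, a prostaglandin receptor gene, had 8 and 27 UMIs, but 4 and 3 without the nuclei that held 20 or more UMIs of other cell types.

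C7 was the 1 gene of 6 complement genes past 1.5-fold, beside 16.3% higher and 18.4% lower over all genes. The median of the list was 0.15. Colec12, a scavenger receptor that binds microbial sugars, had 151 and 113 UMIs. Among chemokine, cytokine and adhesion genes 3 of 19 were higher and 2 lower, beside 16.3% higher and 18.4% lower over all genes. Cxcl12, a chemokine that retains leukocytes bearing Cxcr4, had 76 UMIs in 60.3% of sham nuclei and 155 in 86.8% of nephrectomy nuclei, a ratio of 2.07 (1.56 to 2.75). After thinning it was found in 29.3% and 47.4% of nuclei. It stood at 19.0 and 20.4 CPM in all other nuclei. Il15 had 9 and 23 UMIs and Csf1 16 and 6.

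Antigen presentation genes of class II were higher, but in few nuclei. H2-Ab1 had 1 UMI in sham and 25 in nephrectomy, H2-Aa 4 and 24, and Cd74, the invariant chain, 22 and 59. The class II genes together had 30 UMIs in 13 sham nuclei and 125 UMIs in 13 nephrectomy nuclei, with 55 of the 125 in 1 nucleus. Without nuclei that held 20 or more UMIs of other cell types, Cd74 had 22 and 27 UMIs. The summed macrophage and dendritic cell markers moved in the same direction, and their part was not tested. Over the 17 interferon and antigen presentation genes 5 were higher and 2 lower, beside 16.3% higher and 18.4% lower over all genes. Oasl2, an interferon-induced gene chosen after its values were seen, had 8 and 23 UMIs.

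Stress and clock genes held single members that differed. Of 6 immediate early and stress genes 0 were higher and 2 lower, against 16.3% and 18.4% over all genes: Hspa8 had 94 and 42 UMIs, giving a ratio of 0.453 (0.307 to 0.658), and Hsp90aa1 28 and 9. Both cytosolic chaperones were lower in all other nuclei too, Hspa8 at 391 and 186 CPM and Hsp90aa1 at 120 and 65.6 CPM. Of 23 glucocorticoid response and clock genes 3 were higher and 3 lower, with a median of 0.18. Fkbp5, a cochaperone induced by glucocorticoids, had 191 and 343 UMIs, giving a ratio of 1.82 (1.52 to 2.18), and was higher in all other nuclei too, at 299.7 and 470.3 CPM. It was chosen after its values were seen, as was Hsd11b1. Arntl, the partner of Npas2, had 33 and 13 UMIs, a ratio of 0.399 (0.193 to 0.779). Hsd11b1, which regenerates active glucocorticoid, had 426 and 248 UMIs, a ratio of 0.590 (0.502 to 0.691). Rora had 1005 and 1163 UMIs.

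Among 38 stromal transcription factors 9 were higher and 3 lower, with a median of 0.15, where all genes had 16.3% higher and 18.4% lower. Tcf21, which specifies stromal and mesenchymal lineages in kidney, had 59 UMIs in 31 sham nuclei and 24 UMIs in 15 nephrectomy nuclei, a ratio of 0.412 (0.245 to 0.673). Zeb2, a repressor active in mesenchymal cells, had 844 and 539 UMIs, a ratio of 0.647 (0.580 to 0.721). Tshz2 had 878 and 1038 UMIs, a ratio of 1.20 (1.09 to 1.31). The 2 highest ratios rested on few nuclei: Creb5 had 1 and 24 UMIs, the 24 in 2 nuclei, and Foxp2 2 and 24, the 24 in 4 nuclei.

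Retinoid and lipid genes had 7 of 18 members higher and 3 lower, with a median log2 ratio of 0.25, beside the same 16.3% and 18.4% over all genes. After Aldh1a1 came Abca6, a lipid transporter gene near Abca8a on chromosome 11, with 26 UMIs in 16 nuclei and 65 in 20, a ratio of 2.53 (1.58 to 4.16). Abca8a had 329 and 618 UMIs, a ratio of 1.90 (1.66 to 2.18), while the neighbouring Abca9, chosen after its values were seen, had 60 and 58. Lrp1, an endocytic receptor chosen after its values were seen, had 86 and 49 UMIs, a ratio of 0.577 (0.398 to 0.829). Of 34 axon guidance and adhesion genes 12 were higher and 5 lower, with a median of 0.02 and the same shares over all genes. The higher members included Tenm2 and Ncam1, whose nephrectomy UMIs lay mostly in 1 nucleus each, as given under the other observations. They also included Slit2 and Efna5, chosen after their values were seen. Slit2 had 21 sham and 54 nephrectomy UMIs, and Efna5 15 and 47, in the nuclei with 20 or more UMIs of other cell types. Robo2, a receptor for Slit ligands, had 1048 and 932 UMIs, giving a ratio of 0.901 (0.824 to 0.985), and the protocadherin gene Pcdh9 351 and 593, a ratio of 1.71 (1.497 to 1.958). No cell cycle gene reached 20 UMIs.

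The fibroblast nuclei were also described by whether they held a C7 UMI, a split added after the data were seen and made on C7 itself. In sham the 23 nuclei with C7 had a median of 5072 UMIs and the 35 without it 3436, and in nephrectomy the 28 with it had 5872.5 and the 10 without it 6077. Aldh1a1 stood at 90.1 CPM in sham and 425 CPM in nephrectomy nuclei with C7, and at 42.3 and 78.8 CPM in those without it. These levels rested on few nuclei. In sham, 8 of its 10 UMIs with C7 lay in 1 nucleus, as did 5 of its 6 UMIs without C7. In nephrectomy, 30 of its 79 UMIs with C7 lay in 1 nucleus. Cxcl12 stood at 234 and 763 CPM with C7 and at 353 and 205 CPM without it, and Abca8a at 1623 and 2881 CPM with C7 and at 1051 and 1292 CPM without it. All 110 nephrectomy UMIs of Plcxd3 and 30 of the 41 in sham lay in nuclei with C7. Of the UMIs of the 10 nephrectomy nuclei without C7, 45.6% came from the 3 nuclei with 20 or more UMIs of defining markers of other cell types, all 5 Aldh1a1 UMIs among them, and in sham 8.21% came from 1 such nucleus. Left out, the nuclei without C7 had Aldh1a1 at 46.1 CPM in 34 sham nuclei and 0 CPM in 7 nephrectomy nuclei, Cxcl12 at 384 and 260 CPM, and Abca8a at 1145 and 1360 CPM. Whether the gap between the libraries differed with C7 was not tested.

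Genes lower in nephrectomy were set out in the same way. Adamts5 stood at 1280 CPM in sham and 597 CPM in nephrectomy nuclei with C7, and at 1312 and 284 CPM in those without it. Igfbp3 stood at 1911 and 1011 CPM with C7 and at 1439 and 284 CPM without it. Kcnb2, with 7 and 1 nephrectomy UMIs on the 2 sides, stood at 306 and 37.6 CPM and at 268 and 15.8 CPM. Itga9 stood at 496 and 96.8 CPM with C7 and at 466 and 268 CPM without it, and Cdc42ep3 at 568 and 199 CPM and at 473 and 142 CPM. With the same 4 nuclei left out, those without C7 had Adamts5 at 1429 and 434 CPM, Igfbp3 at 1560 and 318 CPM, Kcnb2 at 292 and 28.9 CPM, Itga9 at 484 and 318 CPM, and Cdc42ep3 at 492 and 260 CPM. In 7 nephrectomy nuclei these levels rested on 1 to 15 UMIs each.

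**Figure D5:**
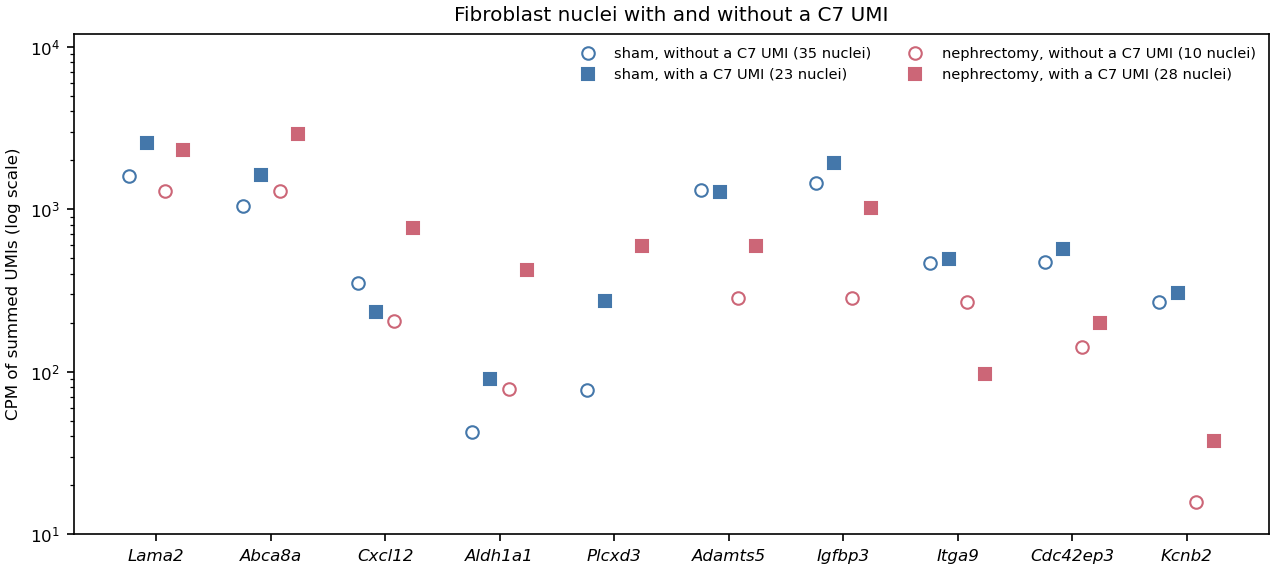
CPM of summed UMIs (y axis, log scale) of 10 genes (x axis) in fibroblast nuclei with a C7 UMI (squares) and without one (circles), sham in blue and nephrectomy in red. Plcxd3 in nephrectomy nuclei without C7 was at 0 and is not drawn, and Adamts5 is lower in nephrectomy both with C7 (1280 and 597 CPM) and without it (1312 and 284 CPM, or 1429 and 434 CPM with the 4 nuclei of 20 or more UMIs of other cell types left out).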

How the data were processed

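The deposited files hold counts of UMIs per gene and barcode, made by the authors with Cell Ranger on mm10. The submitters' processing notes give version 7.1.0 and the file header 7.0.1. Intron counting and barcode calling are not given in the sources used here. The members, gene lists and naming rule were chosen with earlier results of these data known.

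Ratios have exact conditional binomial intervals, levels exact Poisson, shares exact Clopper-Pearson and differences of shares Newcombe intervals. UMIs of 1 nucleus are not independent, so the intervals do not cover differences between nuclei or mice. Genes with at least 20 UMIs over both libraries were compared, and counts under 3 were set to 3 for list medians. Named genes had at least 50 UMIs, a UMI in at least 10 nuclei of the higher library, a ratio of at least 2 either way, and a level there at or above that of the whole library. Predicted, mitochondrial, ribosomal, haemoglobin and sex-linked marker genes were left out, and the 15 highest and 15 lowest were taken. In each list the 2 highest, 2 lowest and 2 best counted members, and any marker, could be named. Some genes that met these rules are not reported here. Mural nuclei had more mural than fibroblast UMIs and at least 2 mural genes. Endothelial and proximal tubule nuclei had at least 2 of the 3 genes of their type in the rule. The free RNA share is the portion of the whole-library profile needed to account for the UMIs of those 5 tubule genes in the fibroblast nuclei. The defining markers of other cell types included Umod, Slc12a1, Slc12a3, Trpm6, Aqp2, Fxyd4, Atp6v1g3, Slc26a4, Nphs1, Ptprc, Csf1r and Skap1.

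Scrublet's own threshold marked 8 sham and 8 nephrectomy nuclei (0.301% and 0.275%), too few to be useful, so no doublet was removed, and leaving out the highest 3% of scores was an alternative. GENCODE M21 on GRCm38 gave the position of 748 of 748 genes. The scripts were tested on simulated data. They ran in Python 3.11.15 (scipy 1.17.1, numpy 2.4.6, pandas 2.3.3, matplotlib 3.10.9, scanpy 1.11.5), and TMM factors came from edgeR 4.0.16 under R 4.3.3.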

Additional observations from a re-analysis of the deposited data

How the results depend on the processing

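The C7 ratio of 8.79 became 17.1 with a mitochondrial limit of 2%, 15.99 without nuclei with 3 or more UMIs of other cell types, 10.9 without the nucleus with the most C7 and 6.48 with a proximal tubule limit of 0.5%, the last added after the data were seen; the cause was not tested. The counts of 814 higher and 916 lower genes became 538 and 591 without nuclei with 3 or more UMIs of other cell types, and 185 and 159 after thinning, where fewer UMIs and genes were left. They became 2017 and 2328 with no UMI minimum, 289 and 261 with a minimum of 50 UMIs, 342 and 313 at 2-fold, and 1234 and 1488 with neither the endothelial nor the proximal tubule limit, a setting also added after the data were seen, where more nuclei entered. The interval of the difference in fibroblast share reached 0 with a mitochondrial limit of 2% (−1.57 to 0.0619), with at least 4 genes of the rule (−1.20 to 0.00507), with no endothelial limit, added after the data were seen (−1.30 to 0.337) and with neither limit (−1.62 to 0.323).

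Of the 29 named genes other than C7, 24 kept their direction under every one of the 13 or 14 alternatives that gave them a value, and 19 stayed at least 1.5-fold. The others turned: Apba1 (0.743) and St6galnac5 (1.02) without nuclei with 3 or more UMIs of other cell types, Pdia3 (1.09) after thinning, and Macrod2 (0.925) and Sept4 (1.03) with neither limit. No paired analysis was possible because each group is 1 library, and no replicate could be left out. With 96 nuclei, genes under 20 UMIs were not resolved, and variation between mice was not measured.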

Other observations

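Several high ratios in fibroblast nuclei came from 1 nucleus. Tenm2, a synaptic adhesion gene, had 1 UMI in sham and 51 in nephrectomy, 48 of them in 1 nucleus. Piezo2, a stretch-activated channel on the list of mesangial and renin cell markers, had 1 and 34 UMIs, 28 of them in 1 nucleus. Ncam1 had 6 and 43 UMIs, 28 of them in 1 nucleus. Erbb4, an EGF family receptor gene, had 158 and 326 UMIs, and 5 and 7 without the nuclei that held 20 or more UMIs of other cell types.

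Metallothionein gene Mt2 was spread more widely, with 3 UMIs in 3 sham nuclei and 21 UMIs in 13 nephrectomy nuclei. Its ratio was 7.09 (2.12 to 37.1).

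Nuclei left out only by the endothelial limit of the rule also held more C7 in nephrectomy. The 12 sham nuclei stood at 142 CPM and the 25 nephrectomy nuclei at 1385 CPM. Those left out only by the proximal tubule limit, 21 in each library, stood at 384 and 934 CPM.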
